A study of Mus musculus with 16 samples.

Results

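The 10 genes described here are Hoxa3, Hoxa5, Hoxa6, Hoxa7, Hoxa9 and Hoxa10 of the Hoxa cluster, Hoxb3 and Hoxb4 of the Hoxb cluster, and Meis1 and Pbx3, whose proteins bind DNA together with HOX proteins. They were taken by gene symbol from 2 tables of 23420 genes each, and all 10 were found in both tables with the status OK, which marks a tested gene. The tables compare blood progenitors labelled Tet2KO (genotype Tet2-/-) with those labelled WT (genotype Tet2fl/fl, a floxed allele without a stated deletion) from mouse bone marrow at 40 weeks of age. One table is for granulocyte-monocyte progenitors (GMP; lineage-negative, cKit+, Sca1-, CD150-, CD16/32+), which are committed to granulocytes and monocytes. The other is for multipotent progenitors (MPP; lineage-negative, cKit+, Sca1+, CD48+, CD150-), an earlier stage that can still give rise to several lineages. Each comparison rests on 4 Tet2KO and 4 WT libraries, 1 mouse each, and by their labels at least 3 mice per genotype gave both populations. The labels used here do not name the Cre line or the cells in which Tet2 was deleted.

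HOX proteins are homeodomain transcription factors encoded in clusters whose gene order follows their order of use along the body axis. In blood, the genes of the middle and 5′ part of the Hoxa cluster are active in stem cells and early progenitors and are shut down as cells mature. HOXA9 works with the TALE homeodomain proteins MEIS1 and PBX3, and high levels of these genes are a known feature of acute myeloid leukaemias with rearranged KMT2A. TET2 oxidizes 5-methylcytosine in DNA, a step towards removal of methyl groups from CpG sites, and is often mutated in human myeloid disease.

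The depth of single libraries is unknown, because the tables used here give 1 mean per gene over all 8 libraries of a population and no value per library. The means summed to 11033900 in GMP and 9436210 in MPP. The sorted populations carried their defining transcripts. The granule protease gene Elane had a level of 2130 in GMP and 86.5 in MPP, where a level is a gene's mean per 1000000 of the summed means of its table, and Ly6a, which encodes Sca1, had a level of 1.77 in GMP and 28.2 in MPP. Tet2 itself did not check the labels, since its whole-gene value was higher in Tet2KO, with a log2 fold change of 0.35 in GMP and 0.44 in MPP in the authors' deposited table. Every direction below is therefore that of the libraries labelled Tet2KO.

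The start regions of the Hoxa genes differ in how many CpG sites, the places where TET2 acts, they hold. Promoter windows of 300 bases, from 250 bases before to 50 bases after an annotated start, were available from RefSeq (GRCm38.p6) for 8 of the 10 genes. The windows of Hoxa9 and Hoxa10, the genes called lower in GMP below, are printed with that of Hoxa5, which had the most CpG sites among these genes, and that of Hoxb4, from the cluster whose genes lay above 0. Capitals mark CpG sites, and each sequence runs 5′ to 3′ on the gene's strand.
Hoxa9 (chr6:52227321-52227620, minus strand): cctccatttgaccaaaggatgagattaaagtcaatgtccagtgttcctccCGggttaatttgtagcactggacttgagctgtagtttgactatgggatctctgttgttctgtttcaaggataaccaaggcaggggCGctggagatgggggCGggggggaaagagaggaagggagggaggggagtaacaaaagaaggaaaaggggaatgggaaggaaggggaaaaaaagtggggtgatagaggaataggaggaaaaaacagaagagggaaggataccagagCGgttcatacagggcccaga
Hoxa10, upstream start (chr6:52240805-52241104, minus strand): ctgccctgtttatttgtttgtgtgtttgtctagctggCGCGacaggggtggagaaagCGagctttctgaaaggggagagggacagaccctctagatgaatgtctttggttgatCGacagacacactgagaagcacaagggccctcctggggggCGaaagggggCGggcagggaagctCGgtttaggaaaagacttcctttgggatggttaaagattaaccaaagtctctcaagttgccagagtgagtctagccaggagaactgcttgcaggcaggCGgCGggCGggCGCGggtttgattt
Hoxa10, downstream start (chr6:52234890-52235189, minus strand): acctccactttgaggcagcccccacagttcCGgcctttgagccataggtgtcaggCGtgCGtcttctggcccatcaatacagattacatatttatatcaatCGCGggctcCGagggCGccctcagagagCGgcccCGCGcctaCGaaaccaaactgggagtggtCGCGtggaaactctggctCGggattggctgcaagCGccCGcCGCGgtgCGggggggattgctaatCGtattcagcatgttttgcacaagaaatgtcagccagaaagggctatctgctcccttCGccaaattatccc
Hoxa5 (chr6:52204538-52204837, minus strand): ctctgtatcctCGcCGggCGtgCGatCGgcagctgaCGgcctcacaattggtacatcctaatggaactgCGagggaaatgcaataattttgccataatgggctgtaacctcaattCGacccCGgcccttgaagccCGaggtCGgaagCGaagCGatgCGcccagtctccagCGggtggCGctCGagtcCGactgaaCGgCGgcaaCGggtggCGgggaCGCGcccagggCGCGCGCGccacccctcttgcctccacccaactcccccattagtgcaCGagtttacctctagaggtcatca
Hoxb4 (chr11:96318017-96318316, plus strand): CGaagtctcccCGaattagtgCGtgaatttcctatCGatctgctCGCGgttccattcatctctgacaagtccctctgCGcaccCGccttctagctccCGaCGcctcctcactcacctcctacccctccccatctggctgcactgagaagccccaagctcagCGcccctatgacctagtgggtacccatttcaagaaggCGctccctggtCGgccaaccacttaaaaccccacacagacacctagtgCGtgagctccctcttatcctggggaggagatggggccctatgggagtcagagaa
The Hoxa9 window held 4 CpG sites, below the median of 7 over 32851 promoter windows. The windows of Hoxa10 held 12 at the upstream and 21 at the downstream start, that of Hoxa5 29 and that of Hoxb4 14. At least as many CpG sites as in the Hoxa9 window were found in 68.6% of all windows, and at least as many as in the Hoxa5 window in 12.9%. The Hoxa9 window lies at 1 start within the gene; GENCODE places the 5′ end of Hoxa9 at 52231089, and a window at that end was not counted. Neither the E-box CACGTG nor the HOX-PBX sequence TGATTNAT was present on either strand in any window of the 8 genes, and the MEIS sequence TGACAG was present once, in the Hoxa3 window. Over all windows the shares were 7.15% for CACGTG, 3.22% for TGATTNAT and 19.2% for TGACAG, and no motif overlaps another in the windows described.

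Within GMP, the 5′ genes Hoxa9 and Hoxa10 were lower in Tet2KO, and they were the only genes among the 10 to pass the authors' adjusted p of 0.05 (DESeq2, adjusted over all tested genes). That is 2 of 10 genes, both lower, where 3.96% of the 11503 tested GMP genes were called and 2.22% were called lower. In MPP, none of the 10 passed with DESeq2 (0.616% of 11859 tested genes were called there). At an unadjusted p of 0.05, 4 of the 10 passed in GMP, Hoxa7, Hoxa9 and Hoxa10 below and Meis1 above 0, beside 16.4% of all tested genes. In MPP 3 of the 10 did, Hoxa9 below and Hoxb3 and Pbx3 above 0, beside 9.72% of all tested genes.

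**Figure D1:**
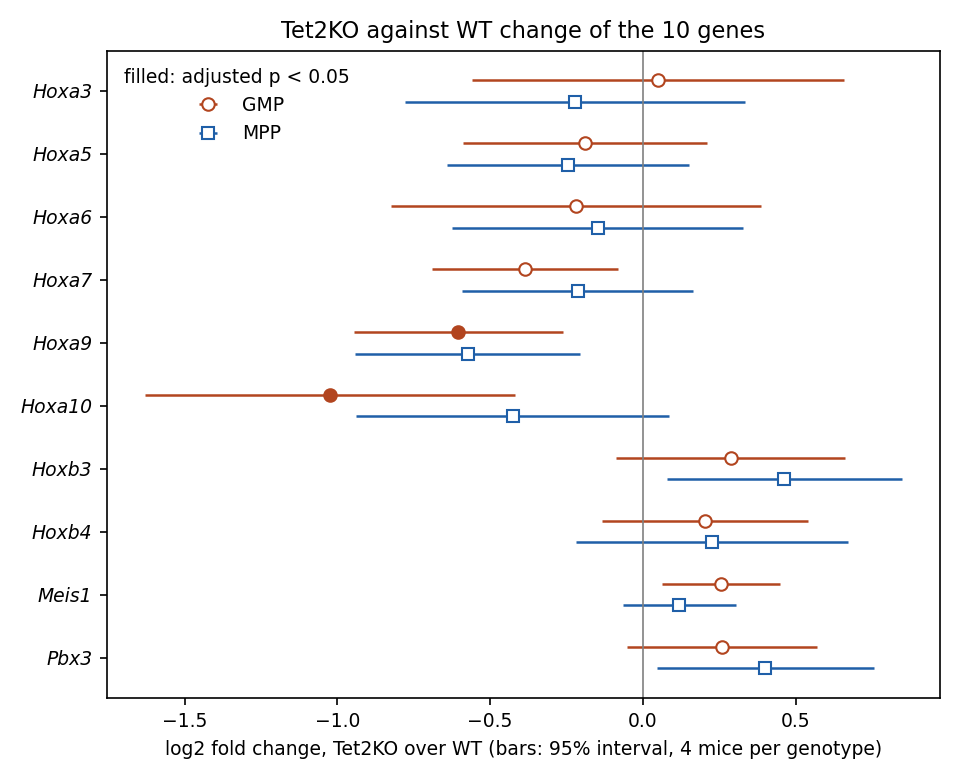
Each of the 10 genes (y axis) is shown with its log2 change, Tet2KO over WT (x axis), with GMP as circles above MPP as squares and bars for the 95% interval (4 mice per genotype). Filled symbols passed the adjusted p of 0.05 in their table, which were Hoxa9 and Hoxa10 in GMP, and the Hoxb genes, Meis1 and Pbx3 lie above 0 in both populations.

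Hoxa9 (chromosome 6, 52223100 to 52231089, minus strand, mm10) encodes the HOX protein best known for keeping myeloid progenitors from maturing. In the authors' deposited table for GMP its log2 fold change was -0.60 (adjusted p = 0.0218, SE 0.175) at a mean of 104 normalized counts. This is a level in Tet2KO of 0.658 times that in WT, with a 95% interval of 0.519 to 0.834. In MPP the authors' deposited table gave a log2 fold change of -0.57 (adjusted p = 0.155, SE 0.188) at a mean of 195, or 0.672 times WT with an interval of 0.521 to 0.868. The estimates were thus nearly the same in size, and Hoxa9 ranked 291st by p in GMP and 177th in MPP. The size needed for a call was not the same. A gene with the SE of Hoxa9 needed an absolute log2 fold change of 0.54 to be called in GMP and of 0.68 in MPP.

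Hoxa10 (chromosome 6, 52231197 to 52240854, minus strand), the 5′ neighbour of Hoxa9 and a regulator of myeloid progenitor growth, had the lowest value of the 10 genes in GMP. Its log2 fold change there was -1.03 (adjusted p = 0.0302, SE 0.309) in the authors' deposited table, or 0.491 times WT with an interval of 0.323 to 0.748. The mean behind it was only 19.4 normalized counts, so the size of the fall is imprecise. In MPP, at a mean of 84.1, the log2 fold change of Hoxa10 was -0.43 (adjusted p = 0.624, SE 0.261) in the authors' deposited table, and its interval of 0.522 to 1.06 times WT includes no change. Both GMP calls depended on the null distribution. With the robust centre and spread of all GMP statistics in place of the standard normal, the adjusted p was 0.418 for Hoxa9 and 0.469 for Hoxa10, and the Hoxa10 call was also lost, at an adjusted p of 0.0502, when p-values were adjusted over every gene that carries one.

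The other Hoxa genes gave smaller values that did not pass. Hoxa7, which borders Hoxa9 on the 3′ side, had a log2 fold change of -0.39 (adjusted p = 0.152, SE 0.156) in GMP and -0.21 (SE 0.192) in MPP in the authors' deposited table. The GMP interval of Hoxa7, 0.619 to 0.946 times WT, lies below no change, and 20.4% of its exon length is shared with Hoxaas3 on the opposite strand. For Hoxa5, whose protein is known to influence the balance of myeloid and erythroid output in human progenitors, the log2 fold change was -0.19 (SE 0.204) in GMP and -0.25 (SE 0.203) in MPP in the authors' deposited table. Hoxa6 had -0.22 (SE 0.309) and -0.15 (SE 0.243) in GMP and MPP, and Hoxa3 had 0.05 (SE 0.310) in GMP and -0.22 (SE 0.283) in MPP, all log2 fold changes in the authors' deposited table. Of the 6 Hoxa genes, 5 lay below 0 in GMP and 6 in MPP, where 49.9% and 50.9% of all tested genes did. These counts have no test, because neighbouring genes in the same libraries are not independent and mice are shared between the populations.

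The Hoxb genes pointed the other way without passing the threshold. Hoxb3 (chromosome 11, 96323326 to 96347930, plus strand) had a log2 fold change of 0.29 (adjusted p = 0.484, SE 0.191) in GMP and 0.46 (adjusted p = 0.377, SE 0.196) in MPP in the authors' deposited table. In MPP this is 1.38 times WT with an interval of 1.06 to 1.80. Hoxb4 (chromosome 11, 96318267 to 96321638, plus strand), known for expanding haematopoietic stem cells when overexpressed, had 0.20 (SE 0.172) in GMP and 0.23 (SE 0.228) in MPP as log2 fold changes in the authors' deposited table, and both intervals include no change. The Hoxb3 value carries an uncertainty of counting. In the GENCODE annotation 52.9% of its exon length is shared with Hoxb3os on the opposite strand, and the sources used here do not say whether reads were counted by strand.

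The DNA-binding partners also lay above 0. Meis1 (chromosome 11, 18879817 to 19018985, minus strand), which encodes the cofactor that accelerates leukaemia driven by Hoxa9 in mice, was the most precisely measured of the 10 genes. Its log2 fold change was 0.25 (adjusted p = 0.125, SE 0.0985) in GMP and 0.12 (adjusted p = 0.740, SE 0.0946) in MPP in the authors' deposited table. The GMP interval was 1.04 to 1.36 times WT and the MPP interval 0.955 to 1.24. Pbx3 (chromosome 2, 34171457 to 34373142, minus strand), a PBX cofactor of HOXA9 in leukaemia, had 0.26 (adjusted p = 0.431, SE 0.159) in GMP and 0.40 (adjusted p = 0.426, SE 0.181) in MPP as log2 fold changes in the authors' deposited table. The MPP interval of Pbx3 was 1.03 to 1.69 times WT.

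What the data could have shown differed by gene. With each gene's own SE, the absolute log2 fold change needed for a call ran from 0.30 (Meis1) to 0.96 (Hoxa3) in GMP and from 0.34 (Meis1) to 1.02 (Hoxa3) in MPP. For Hoxa6 it was 0.96 in GMP and 0.88 in MPP, and for Hoxa10 0.96 in GMP and 0.94 in MPP. The SEs were close to those of other genes at the same mean. They exceeded the median SE of the 200 tested genes nearest in mean for 5 of the 10 genes in GMP and 6 in MPP, with the widest gaps for Hoxa3 in MPP (0.283 against 0.230) and for Hoxb3 in GMP, whose SE was smaller (0.191 against 0.232). No gene of either table, at any mean, had an SE above 0.388, as in fold changes shrunk towards 0, so changes of genes with low means may be understated.

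Whether Tet2KO changed a gene differently in GMP and MPP was tested directly. The GMP minus MPP difference in log2 fold change was divided by the root of the summed squared SEs in a normal test of 17660 genes with Benjamini-Hochberg adjustment, and 0.0453% of them passed. None of the 10 passed, adjusted or at an unadjusted p of 0.05, where 3.58% of all genes did. The largest difference was that of Hoxa10, -0.60 with a 95% interval of -1.39 to 0.19 (adjusted p = 0.999925). For Hoxa9 it was -0.03 with an interval of -0.53 to 0.47, and for Meis1 0.13 with an interval of -0.13 to 0.40. The intervals of the Hoxa genes are wide enough to hold sizeable differences in either direction, so the test does not show that the populations responded alike. When the errors of both tables were taken as correlated at 0.346, the correlation of the statistics across genes, again none of the 10 passed, and the smallest adjusted p among them was 0.665.

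All 10 genes had a lower level in GMP than in MPP, over both genotypes. The tables were normalized separately, so these levels have no test between them. Hoxa10 stood at a level of 1.76 in GMP and 8.91 in MPP, Hoxa3 at 1.93 and 9.14, and Meis1 at 51.2 and 187. These 3 genes had the lowest GMP to MPP ratios of the 10, at 0.198, 0.211 and 0.274. Hoxa5 (5.90 in GMP and 19.3 in MPP), Hoxa6 (1.99 and 5.94) and Hoxb3 (4.80 and 13.2) followed with ratios of 0.306, 0.334 and 0.363. Hoxa9 had a level of 9.42 in GMP and 20.6 in MPP, a ratio of 0.456. The ratios nearest to 1 were those of Hoxb4 (0.619), Hoxa7 (0.640) and Pbx3 (0.646). The median log2 ratio of the 10 was -1.52, beside -0.11 over the 9536 genes whose mean reached 50 in GMP and in MPP. Of those 9536 genes, 62.4% had a lower level in GMP. The sets are not alike, because Hoxa3, Hoxa6 and Hoxa10 had GMP means of 21.3, 21.9 and 19.4, under that cut. The log2 ratios of the other members ran from -1.87 (Meis1) to -0.63 (Pbx3). Hoxa10, whose log2 fold change in GMP was the lowest of the 10, was also the gene with the lowest level in GMP relative to MPP. These values are not independent. The means pool both genotypes, so a lower value in Tet2KO GMP by itself lowers the ratio. Hoxa3 and Meis1, next in ratio, had log2 fold changes of 0.05 and 0.25 in GMP in the authors' deposited table. In bulk samples, fewer cells with a transcript and less of it per cell cannot be told apart.

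**Figure D2:**
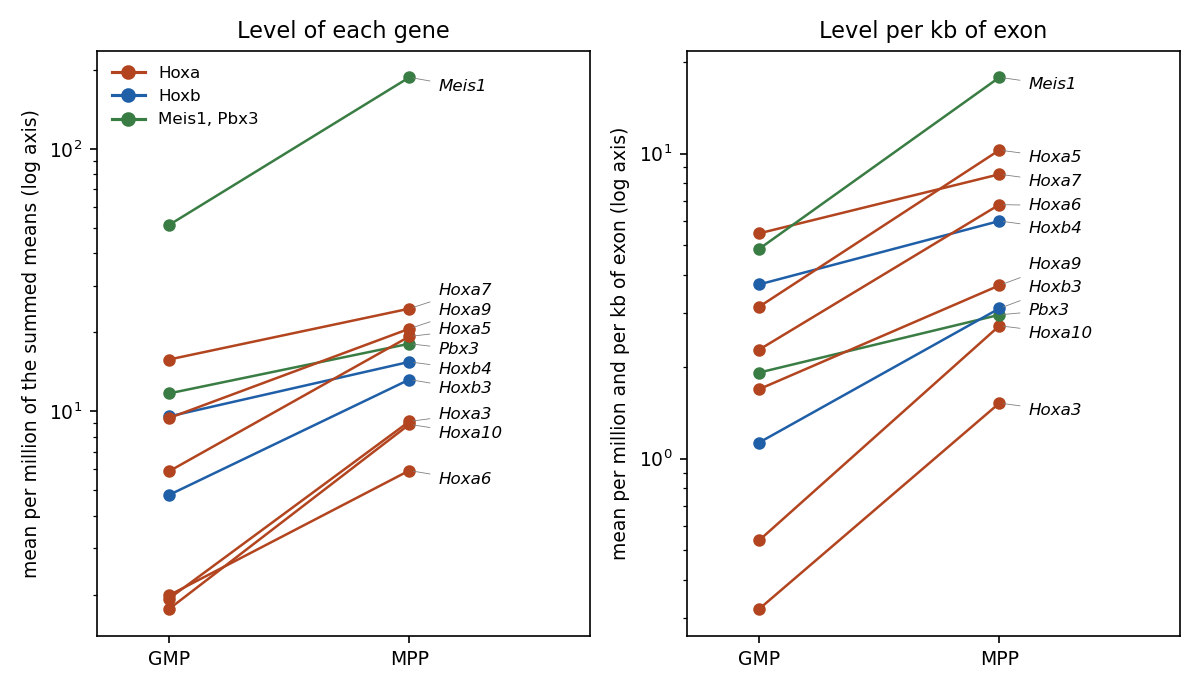
Left, the level of each gene (mean per 1000000 of the summed means of its table, log axis), and right, the level per kb of annotated exon (log axis), with GMP left of MPP in each panel and 1 line per gene. All 10 lines are lower at GMP, and per kb Meis1 is highest at MPP and Hoxa7 at GMP.

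Per length, the order of the genes differed between the populations. Per kb of exon, the GMP means were 60.4 normalized counts for Hoxa7, 53.7 for Meis1, 41.1 for Hoxb4, 34.7 for Hoxa5, 25.1 for Hoxa6, 21.1 for Pbx3, 18.6 for Hoxa9, 12.4 for Hoxb3, 5.95 for Hoxa10 and 3.54 for Hoxa3. In MPP the order was Meis1 (168 per kb), Hoxa5 (96.9), Hoxa7 (80.7), Hoxa6 (64.2), Hoxb4 (56.7), Hoxa9 (34.9), Hoxb3 (29.3), Pbx3 (27.9), Hoxa10 (25.7) and Hoxa3 (14.3). Hoxa7 was first in GMP but behind Meis1 and Hoxa5 in MPP, and Hoxa10 and Hoxa3 were last in both. The tables give no spread of a level between libraries, so whether neighbours in these orders differ was not tested. The order depended on the length used. With the longest transcript in place of all exons Hoxa7 (114 per kb) stood above Hoxa5 (96.9) in MPP, Pbx3 (45.1 per kb) came behind only Hoxa7 and Meis1 in GMP, and Hoxa10 came last in both populations with Hoxa3 next to last.

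The tested neighbours of the 10 genes within their clusters lay on the same side of 0 in MPP. Of 11 Hoxa genes in the table, 8 had a mean of at least 10 in MPP and all 8 lay below 0, and of 10 Hoxb genes 5 had such a mean and all 5 lay above 0. Over all tested MPP genes 50.9% lay below 0. The counts include the Hox genes among the 10 and have no test, because neighbouring genes are not independent. The added genes were Hoxa2 (-0.76, SE 0.342, p = 0.0257), Hoxa4 (-0.50, SE 0.355), Hoxb5 (0.69, SE 0.353, p = 0.0510), Hoxb6 (0.60, SE 0.378) and Hoxb7 (0.07, SE 0.387), all log2 fold changes in the authors' deposited table, and none passed (DESeq2, smallest adjusted p 0.422). Hoxb5 is known as a marker of long-term stem cells in mice. In GMP these 5 genes had means under 10 and were not tested. There Hoxa2 had a log2 fold change of -1.004 (SE 0.351), Hoxb5 of 0.29 (SE 0.325), Hoxb6 of 0.06 (SE 0.275) and Hoxb7 of 0.59 (SE 0.320), on the same side of 0 as in MPP, and Hoxa4 of 0.55 (SE 0.353), on the other side, in the authors' deposited table. Hoxb2, with means under 10 in both populations, lay below 0 in MPP, unlike the tested Hoxb genes. Its log2 fold change was 0.47 (SE 0.330) in GMP and -0.10 (SE 0.384) in MPP in the authors' deposited table. No Hoxc or Hoxd gene reached a mean of 10. The highest was Hoxc6, with 4.44 in GMP and 8.74 in MPP.

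**Figure D3:**
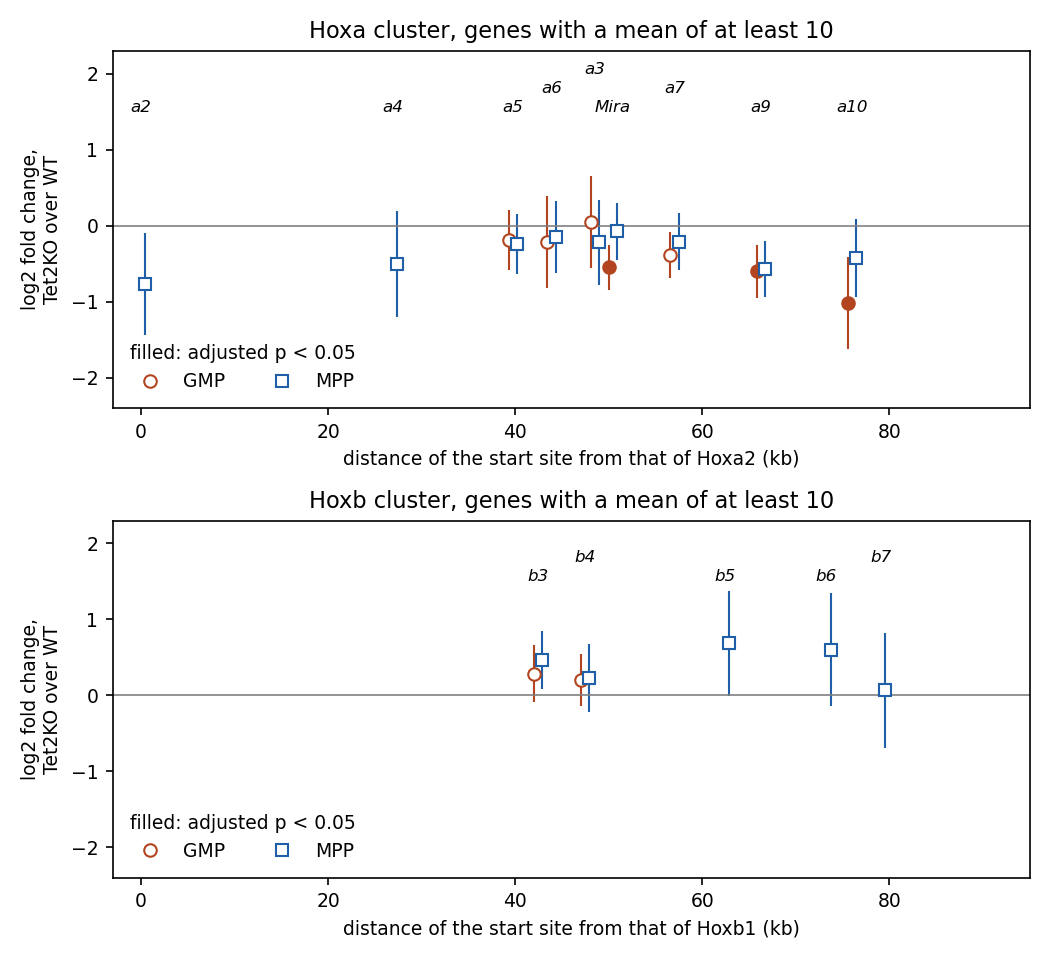
Log2 change, Tet2KO over WT (y axis, bars for the 95% interval) of genes with a mean of at least 10, against the distance in kb of their start site from that of Hoxa2 (top) or Hoxb1 (bottom). The start site is the 5′ end of the annotated gene span, which places Hoxa3 (48.5 kb) beyond Hoxa5 (39.8 kb) and Hoxa6 (43.9 kb). Circles are GMP and squares MPP, filled where the adjusted p was under 0.05; in MPP the Hoxa genes lie below 0 and the Hoxb genes above it, and in GMP the filled symbols are Mira, Hoxa9 and Hoxa10.

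Mira, a noncoding RNA gene between Hoxa6 and Hoxa7, was named after its value was seen and stands outside the gene lists. Its log2 fold change was -0.55 (adjusted p = 0.0161, SE 0.154) in GMP and -0.08 (adjusted p = 0.953, SE 0.193) in MPP in the authors' deposited table, at means of 129 in GMP and 172 in MPP. The difference between populations did not pass either (GMP minus MPP -0.47, SE 0.246, adjusted p = 0.999925). In RefSeq, Mira (chromosome 6, 52214491 to 52215288) ends 334 bases from Hoxa7, but in GENCODE all 798 bases of it lie within exons assigned to Hoxa7. Reads given to Mira here could thus be counted as Hoxa7 under another annotation. Since it was picked for its value and may not be separate from Hoxa7, Mira was not added to the count of called Hoxa genes. Over all tested GMP genes 3.96% were called and 2.22% were called lower. Under the empirical null the adjusted p of Mira was 0.380. Of the 19 noncoding genes of the Hox clusters on the list, 8 were in the tables and none had a mean of 10. Mir196b, a microRNA gene of which 85 bases lie in annotated Hoxa9 exons, had a mean of 0.242 in GMP and 3.62 in MPP, too low for a comparison.

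Among 12 further TALE homeodomain genes, whose family includes partners of HOX proteins, Pbx2 rose in GMP. In each population 5 of the 12 had been tested, and 1 was called in GMP, beside 3.96% of all tested genes, with a median log2 fold change of 0.04 beside 0.00 over all tested genes. Pbx2, a PBX cofactor gene, rose by 0.28 (adjusted p = 0.0408, SE 0.0875) on the log2 scale in GMP in the authors' deposited table. In MPP 0 of the 5 were called (DESeq2) and 0 passed an unadjusted p of 0.05, with a median of 0.06. Pbx2 had a log2 fold change of -0.12 (adjusted p = 0.821, SE 0.121) there in the authors' deposited table. The smallest p in MPP was that of Pknox1, a PBX partner gene, with -0.18 (adjusted p = 0.523, SE 0.0950) as log2 fold change in the authors' deposited table. The Pbx2 call was lost under the empirical null (adjusted p = 0.524) and when p-values were adjusted over every gene that carries one (adjusted p = 0.0678). The GMP minus MPP difference of Pbx2, 0.40 (SE 0.149), did not pass (adjusted p = 0.999925).

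Of 32 tested chromatin regulators, among them Men1 and Dot1l, whose products act on Hox clusters, 0 were called in either population (DESeq2). At an unadjusted p of 0.05, 8 passed in GMP and 1 in MPP, beside 16.4% of all tested genes in GMP and 9.72% in MPP, and the medians were -0.03 in GMP and 0.02 in MPP. The smallest p in GMP was that of Mllt1, a reader of acetylated histones in complexes with DOT1L, with a log2 fold change of 0.24 (adjusted p = 0.0520, SE 0.0796) in the authors' deposited table. Kdm6b, a demethylase of the polycomb mark, followed with 0.38 (adjusted p = 0.0817, SE 0.135) in GMP in the authors' deposited table. Mllt1 and Kdm6b lay above 0, and the rest of the 8 that passed the unadjusted p in GMP lay below it. In MPP the smallest p-values belonged to Kdm6a, a related demethylase gene, with 0.31 (adjusted p = 0.439, SE 0.144), and Aff1, which encodes a subunit of an elongation complex, with 0.18 (adjusted p = 0.530, SE 0.0953), both log2 fold changes in the authors' deposited table. Of the associated targets, 1 of 23 tested was called in GMP and 1 of 24 in MPP, with medians of 0.01 in GMP and 0.05 in MPP. At an unadjusted p of 0.05, 5 of the 23 passed in GMP, beside 16.4% of all tested genes. In MPP 8 of the 24 did, beside 9.72%. Most of those passing in GMP lay above 0, and most of those in MPP lay below it. These counts have no test. Bcl2, an inhibitor of apoptosis, rose by 0.23 (adjusted p = 0.0218, SE 0.0669) in GMP, and Cdk6, a kinase that drives progenitors into the cell cycle, rose by 0.42 (adjusted p = 0.0121, SE 0.103) in MPP on the log2 scale in the authors' deposited table. In MPP the log2 fold change of Bcl2 was -0.21 (adjusted p = 0.391, SE 0.0919) in the authors' deposited table, and in the test of the difference it did not pass (adjusted p = 0.142). Over all tested genes 3.96% were called in GMP and 0.616% in MPP, and under the empirical null neither Bcl2 nor Cdk6 was called.

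**Figure D4:**
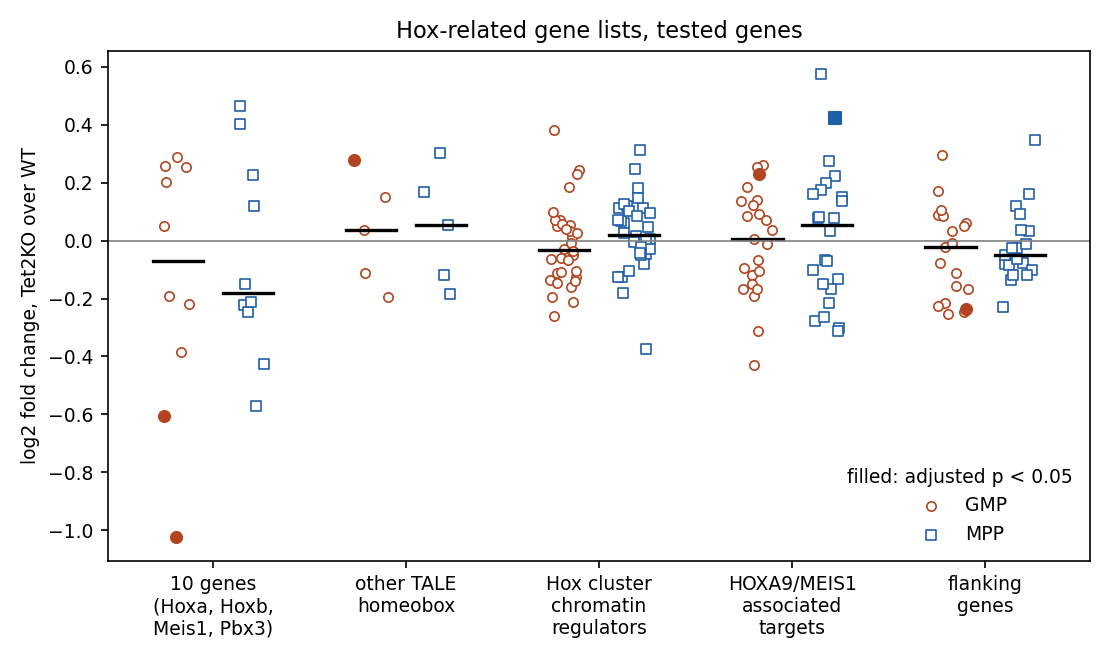
Log2 change, Tet2KO over WT (y axis) of each tested gene in 5 lists (x axis), with circles for GMP left of squares for MPP, filled where the adjusted p was under 0.05 and with a black line at the median. Hoxa9 and Hoxa10 are the lowest of all the values in GMP, and the medians of the other lists run from -0.05 to 0.06.

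The 3 tested genes within 500 kb of the Hoxa cluster lay below 0 in GMP too, by less than Hoxa9 and Hoxa10. Skap2, the nearest at 143 kb, had a log2 fold change of -0.22 (adjusted p = 0.221, SE 0.0978) in GMP and -0.08 (SE 0.111) in MPP in the authors' deposited table. Tax1bp1, at 453 kb, was called lower in GMP by 0.23 (adjusted p = 0.00075, SE 0.0519) in the authors' deposited table at a mean of 8593, and its call was lost under the empirical null. It was the 1 called gene of these 3, where 3.96% of all tested GMP genes were called. Hibadh, at 285 kb, had -0.08 (SE 0.0869) in GMP in the authors' deposited table. The 7 tested genes around the Hoxb cluster ran from -0.23 to 0.11 in GMP and from -0.23 to 0.04 in MPP, and 0 were called (DESeq2). At an unadjusted p of 0.05, 4 of all 19 tested flanking genes passed in GMP, beside 16.4% of all tested genes, and 0 of 19 in MPP, beside 9.72%.

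The genes whose pair of changes in GMP and MPP lay nearest to that of Hoxa9, by Euclidean distance over the 2 comparisons and 9102 genes, were Hist2h2bb (distance 0.0687), Prkcb (0.143) and Lonrf3 (0.145). Those nearest to Hoxa10 were Mecom (0.204) and Vegfa (0.233). Mecom, a stem cell transcription factor gene, had log2 fold changes of -0.85 in GMP and -0.53 in MPP in the authors' deposited table. With only 2 comparisons that share mice, this likeness is a description.

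Markers of other cell states moved in GMP as well. Monocyte markers were called higher for 5 of 6 tested genes, mast cell and basophil markers lower for 2 of 4, and primary granule markers lower for 3 of 8. Over all tested GMP genes 3.96% were called. Above 0 lay 3 of the 8 primary granule markers, and below 0 lay 1 of the 6 monocyte markers. Megakaryocyte markers were called higher for 2 of 4, the platelet protein genes Pf4 and Vwf, and neutrophil markers for 1 of 2, the granule collagenase gene Mmp8. Their log2 fold changes in GMP were 1.35 for Pf4 (adjusted p = 0.0062, SE 0.345), 1.01 for Vwf (adjusted p = 0.000145, SE 0.206) and 1.36 for Mmp8 (adjusted p = 2.21e-05, SE 0.252) in the authors' deposited table, all larger in size than that of Hoxa9. The other tested neutrophil marker, S100a8, had a log2 fold change of -0.42 (SE 0.254) in GMP in the authors' deposited table. Of the 4 tested megakaryocyte markers, 1 lay below 0. Of 14 stem cell markers, which include Meis1 and Hoxb5, 11 had been tested, 7 lay above and 4 below 0, and Mecom was called, lower. At an unadjusted p of 0.05, 7 of these 11 passed in GMP, beside 16.4% of all tested genes, and the median log2 fold change of the 11 was 0.25. In MPP, 0 of 12 tested stem cell markers were called (DESeq2), beside 0.616% of all tested genes. There 1 of the 12 passed an unadjusted p of 0.05, beside 9.72% of all tested genes, and their median log2 fold change was 0.09. Called lower in MPP were 2 of 7 tested lymphoid-primed markers, Ccr9 and Rag2, and 1 of 3 tested primary granule markers, the granulocyte gene Gfi1. Summed over both genotypes, stem cell markers had a summed level of 218 in GMP and 1063 in MPP, and no stem cell or monocyte marker was at 0. Sums per genotype cannot be had from the tables, and the part of such cells in the changes of Hoxa9, Hoxa10 and Pbx2 was not tested.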

How the data were processed

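RNA of 16 sorted mouse progenitor samples was amplified from 2 ng and read single-end over 75 bp, per the labels' protocols. The submitters' processing notes name STAR, mm10 and DESeq2, each without a version; the sources used here name no counter and no annotation. The deposited mean is a normalized signal per gene, the deposited fold change is a log2 value with its SE, and each p-value and adjusted p-value is the authors' own, as deposited. Deposited p-values matched the two-sided normal p of change over SE to within a relative 0.000413 on the log10 scale. Genes marked Low all had a mean under 10, and neither they nor those marked Outlier carry an adjusted p.

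Computed here (Python 3.11.15, numpy 2.4.6, scipy 1.17.1, pandas 2.3.3, matplotlib 3.10.9) were 95% intervals, the difference between populations, levels, lengths from GENCODE M21 exons, promoter counts and the alternatives. The tests were checked on simulated data with normal errors of the deposited SEs, independent between populations. That check does not show how the tests are calibrated on these data. Named were all 10 genes, the called genes of each list (or up to 2 of smallest p) and the tested neighbours. Up to 3 genes most like Hoxa9 and Hoxa10 were named as well. Mira, values of untested Hox genes, and MPP values of called genes were added after values were seen. The 4 rows that share a name were left out of list and alternative counts. The genes and lists were chosen with earlier results of these data known. The labels do not give litters or sorting days, so p-values measure only the spread between these samples. A few genes that these rules or lists would take in are not reported here.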

Additional observations from a re-analysis of the deposited data

Results flagged for a closer look

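The change of Pf4, a megakaryocyte marker that encodes a platelet chemokine, differed between the populations by the test of the difference itself. Its log2 fold change, Tet2KO over WT, was 1.35 in GMP and -0.92 in MPP in the authors' deposited table, a difference of 2.27 (SE 0.516, adjusted p = 0.0276, normal test with Benjamini-Hochberg adjustment over 17660 genes). The mean of Pf4 was 37.2 in GMP and 11.5 in MPP, the latter close to the mean of 10 under which genes were not tested. Vwf, the other megakaryocyte marker called in GMP, did not pass this normal test (difference 0.87, SE 0.354, adjusted p = 0.999925). No alternative setting is reported for the Pf4 difference.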

How the results depend on the processing

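No paired analysis was possible because the tables used here hold no values per library, and for the same reason no replicate could be left out. The number of the 10 genes called in GMP was 2 with the settings of the report, at a threshold of 0.1, after recentring on the median and among genes changed by 0.5 or more on the log2 scale. It was 0 at a threshold of 0.01 and 0 with the empirical null. It was 1 (Hoxa9) with a minimum mean of 50, where Hoxa10 drops out of the test. When adjusted over every gene with a p-value it was again 1 (Hoxa9). At log2 fold changes of -0.60 and -1.03, Hoxa9 and Hoxa10 could not lose their calls to the looser threshold or the size filter. The number of all GMP genes called moved as well, to 767 at a threshold of 0.1, 198 at 0.01 and 72 with the empirical null, and that in MPP to 36 at 0.01 and 18 with the empirical null. In MPP 0 of the 10 were called under each of the 7 alternatives. The empirical null, added for the lists after seeing the data, left 0 TALE genes, 0 associated targets and 0 flanking genes called in GMP and 0 associated targets in MPP, since it widens the spread of the statistic to 1.35 in GMP and 1.15 in MPP. Scaling levels by the median ratio of all genes moved the median log2 level of the 10 in GMP over MPP to -1.41 and kept all 10 below 0. The highest over the lowest level was 17.0 per kb of exon in GMP and 11.7 in MPP, 11.3 and 7.13 with the longest transcript, and 29.1 and 31.5 without length. No log2 fold change of the 10 genes, Pbx2 or Mira changed sign under recentring. None could, because the median subtracted was only 0.00025 in GMP and -0.0038 in MPP. The empirical null, the minimum mean and the wider adjustment leave the log2 fold changes as they are and change only the adjusted p. Hoxa3, Hoxa6 and Hoxa10 in GMP fall under the minimum mean of 50. Precision at low means limits Hoxa3, Hoxa6 and Hoxa10 most.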
